A study of Mus musculus with 40 samples.

Results

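The PAX5 construct with a deletion named Δ2-6 was compared with the empty vector, called MIR, in the mouse plasmacytoma line J558LuM, to ask whether a deleted PAX5 changes the transcriptome by itself. The comparison rests on 13 of the 40 arrays of the series, 6 of cells transduced with PAX5-Δ2-6 and 7 of cells transduced with MIR, chosen by the group in the sample titles. The other arrays hold PAX5-WT, PAX5-G183S and PAX5-G183V (7 each) and PAX5-P80R (6), and were used as a measure of what active constructs do and for the shared estimate of the spread. All cells were J558LuM, all arrays measured total RNA, and the labels record no further treatment. Every array has a transduction number of its own, and the p-values therefore reflect variation among separate transductions in a single cell line. Within an isolation batch the transductions of PAX5-Δ2-6, and those of MIR, lie close in the numbering. The p-values there do not measure variation along the numbering. The labels name the construct only as PAX5-Δ2-6. They do not say which residues are missing, how much protein was made, or what share of the cells carried the vector.

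PAX5 is the transcription factor that commits progenitors to the B lineage and keeps B cells in that state. It binds DNA through its paired domain, recruits co-repressors through its octapeptide, activates B cell genes such as those of the B cell receptor complex and represses genes of other lineages and of plasma cells. Plasma cells switch it off as they turn to antibody secretion, and plasmacytoma lines such as J558LuM, which lack PAX5, are therefore used to see what returns when it is put back. A construct without parts of the protein may act on nothing, act in part, or act in a way that wild-type PAX5 does not. The 3 outcomes were examined in turn below through the genes that PAX5-WT moves, through gene lists and through all genes.

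The layout of the arrays bears on every value that follows. RNA was isolated in 2 batches and arrays were run on 2 plates. PAX5-Δ2-6 had 3 arrays in isolation batch 1 (transductions 4, 5 and 6) and 3 in isolation batch 2 (transductions 53, 56 and 57), all on plate 2. MIR had 4 arrays in isolation batch 1 (transductions 34, 35, 37 and 38) and 3 in isolation batch 2 (transductions 58, 59 and 60), of which replicates 3, 4 and 7 were on plate 2. The numbers of the 2 groups do not interleave in either batch. In isolation batch 1 they are far apart, and in isolation batch 2 they adjoin, with 57 the last of PAX5-Δ2-6 and 58 the first of MIR, where the labels mark no boundary. Within each isolation batch the group and the position in the numbering therefore cannot be told apart from these 13 arrays. Runs of numbers were defined here for alternative fits, as 3 runs (1 to 9, 34 to 44 and 45 to 66) or as 4 (the last divided into 45 to 57 and 58 to 66). MIR replicate 7 is the single MIR array of isolation batch 2 on plate 2, and it stood apart for Cd36, a gene that PAX5-WT raised, at 5.89 against 3.56 to 3.85 in the other MIR arrays. It was also the highest MIR array for Fcgr2b, at 5.58 against 4.12 to 4.92, which is not an outlier by Dixon's test. The log2 medians of these 13 arrays ran from 4.22 to 4.26, and precision is limited by how many arrays there are.

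The cells had the profile of the plasma cell lineage in both groups. On the log2 signal scale Xbp1, the factor that drives the secretory programme, lay between 13.20 and 13.38 in MIR and between 13.17 and 13.32 in PAX5-Δ2-6. Jchain, which joins antibody units into polymers, Irf4 and Prdm1, factors of plasma cell fate, and Tnfrsf17, a survival receptor of plasma cells, were above 83.5% or more of all genes in MIR. Of the B cell markers, Ms4a1, Cd79a, Cd22 and Ebf1 had MIR levels no higher than 4.30 and PAX5-Δ2-6 levels no higher than 4.73. Not every B cell gene was low, since Cd79b, a chain of the B cell receptor, lay between 10.01 and 10.19 in MIR and between 9.75 and 10.21 in PAX5-Δ2-6. Sdc1 and Mzb1 were not analysed here.

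PAX5-Δ2-6 cells were not distinguished from MIR cells at any gene when both isolation batches were fitted together. In the limma fit with terms for group, plate and isolation batch, 0 of 17097 genes were called at an adjusted p under 0.05 (0% of genes tested), and the smallest adjusted p was 0.218. An unadjusted p under 0.05 was reached by 1308 genes, 643 higher and 665 lower. PAX5-WT, measured against the same MIR arrays, had 1099 called genes (6.43%), 613 higher and 486 lower, and 145 of them differed by 1.5-fold or more. The call of 0 genes ended when the 3 transduction runs took the place of the isolation batches in the fit: 677 genes (3.96%) were then called, 269 higher and 408 lower. Only the run 45 to 66 holds both groups, so that fit takes the difference mainly from isolation batch 2, which is described further below.

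The intervals bound how large a pooled difference could be. For 16947 genes (99.1%) the 95% interval of the PAX5-Δ2-6 minus MIR difference lay within 1.5-fold in both directions. At the median gene the interval extended 0.17 to either side of the estimate on the log2 scale. The interval reached 2-fold for 6 genes, which were Ankrd37, Cd36, Lrp2bp, P2ry10, Pax5 and Thbd. These intervals hold for a difference averaged over both isolation batches and leave out any difference that goes with the transduction numbers.

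The genes that PAX5-WT moved most were described as a panel of 10, taken from earlier results on PAX5-WT in these data, so its PAX5-WT values are a description. Cd36, a scavenger receptor that takes up fatty acids, had a log2 level of 3.56 at the lowest, 3.71 at the median and 5.89 at the highest in the 7 MIR arrays. In the 6 PAX5-Δ2-6 arrays it lay at 3.29, 3.71 and 3.84, and in the 7 PAX5-WT arrays at 9.86, 10.37 and 10.65. PAX5-Δ2-6 and MIR overlapped, and every PAX5-WT array was above both. The PAX5-Δ2-6 minus MIR difference of Cd36 was -0.39 ± 0.31 (SE, n = 6 and 7; limma adjusted p = 0.794), and it was 0.01 without MIR replicate 7. The difference between PAX5-WT and MIR was 6.32 ± 0.27.

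Ms4a1 encodes CD20, a surface protein of mature B cells. Its log2 level was 3.23, 3.86 and 4.08 (lowest, median, highest) in MIR and 3.49, 3.68 and 4.02 in PAX5-Δ2-6. In PAX5-WT it was 8.49, 9.23 and 9.73. The PAX5-Δ2-6 arrays lay within the MIR range, and the difference was -0.03 ± 0.31 (95% interval -0.67 to 0.61; limma adjusted p = 0.989), against 5.29 ± 0.28 for PAX5-WT.

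Nav3, a microtubule-associated protein, was at 3.84, 4.00 and 4.53 in MIR and at 3.76, 4.00 and 4.41 in PAX5-Δ2-6 on the same scale. PAX5-WT raised it to 8.43, 8.84 and 10.09. The median of PAX5-Δ2-6 was that of MIR, with a difference of -0.08 ± 0.41 (limma adjusted p = 0.977). With 3 transduction runs in the fit it was -1.18 at an adjusted p of 0.0319, in a range of 0.0319 to 0.9998 over its alternatives. Its difference ran from -1.18 to 0.66 over the alternative settings, so its direction was not kept. The direction with 3 runs is opposite to the 5.11 ± 0.37 of PAX5-WT.

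Fcgr2b, the inhibitory receptor for IgG on B cells, was at 4.12, 4.36 and 5.58 in MIR and at 4.05, 4.43 and 5.02 in PAX5-Δ2-6. Its level in PAX5-WT was 8.75, 9.60 and 10.13. PAX5-Δ2-6 and MIR overlapped, with a difference of -0.08 ± 0.30 (limma adjusted p = 0.971), and 0.21 without MIR replicate 7.

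At 4 genes with a smaller response to PAX5-WT, PAX5-Δ2-6 also overlapped with MIR. Ets1, a transcription factor of lymphocytes, lay between 3.16 and 4.45 in MIR, between 3.00 and 4.16 in PAX5-Δ2-6 and between 6.01 and 6.76 in PAX5-WT. Ablim1, an actin-binding protein, lay between 4.86 and 5.28 in MIR, between 4.89 and 5.56 in PAX5-Δ2-6 and between 7.22 and 8.13 in PAX5-WT. Siglecg, an inhibitory lectin of B cells, lay between 4.45 and 5.29 in MIR, between 4.35 and 4.91 in PAX5-Δ2-6 and between 7.02 and 7.79 in PAX5-WT. For each of them the PAX5-Δ2-6 and MIR arrays overlapped and no PAX5-WT array reached down to them. Slamf6, a receptor of lymphocyte contacts, lay between 4.97 and 5.37 in MIR, between 4.66 and 5.33 in PAX5-Δ2-6 and between 6.25 and 9.65 in PAX5-WT. The PAX5-Δ2-6 minus MIR differences were -0.29 ± 0.22 for Ets1, 0.14 ± 0.23 for Ablim1, -0.39 ± 0.21 for Siglecg and -0.02 ± 0.40 for Slamf6, with limma adjusted p-values between 0.677 and 0.994.

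At the 2 panel genes that PAX5-WT lowered, PAX5-Δ2-6 and MIR overlapped as well. Asb9, an adaptor of ubiquitin ligases, was at 8.41, 8.78 and 9.29 in MIR, at 8.64, 8.82 and 8.92 in PAX5-Δ2-6 and at 4.75, 5.00 and 6.13 in PAX5-WT. All 6 PAX5-Δ2-6 arrays lay inside the MIR range, with a difference of -0.01 ± 0.17 (limma adjusted p = 0.992). The change with PAX5-WT was -3.53 ± 0.15. Mycn, a MYC family transcription factor, was at 13.58, 13.75 and 13.81 in MIR, at 13.72, 13.78 and 13.91 in PAX5-Δ2-6 and at 11.20, 11.68 and 12.15 in PAX5-WT. The PAX5-Δ2-6 minus MIR difference of Mycn was 0.13 ± 0.15 (limma adjusted p = 0.876). With 3 transduction runs it was 0.56 (adjusted p = 0.0025, range 0.0025 to 0.9998 over its alternatives), and Ablim1 was at 0.69 (adjusted p = 0.0396, range 0.0396 to 0.9998), where PAX5-WT lowered Mycn and raised Ablim1.

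**Figure D1:**
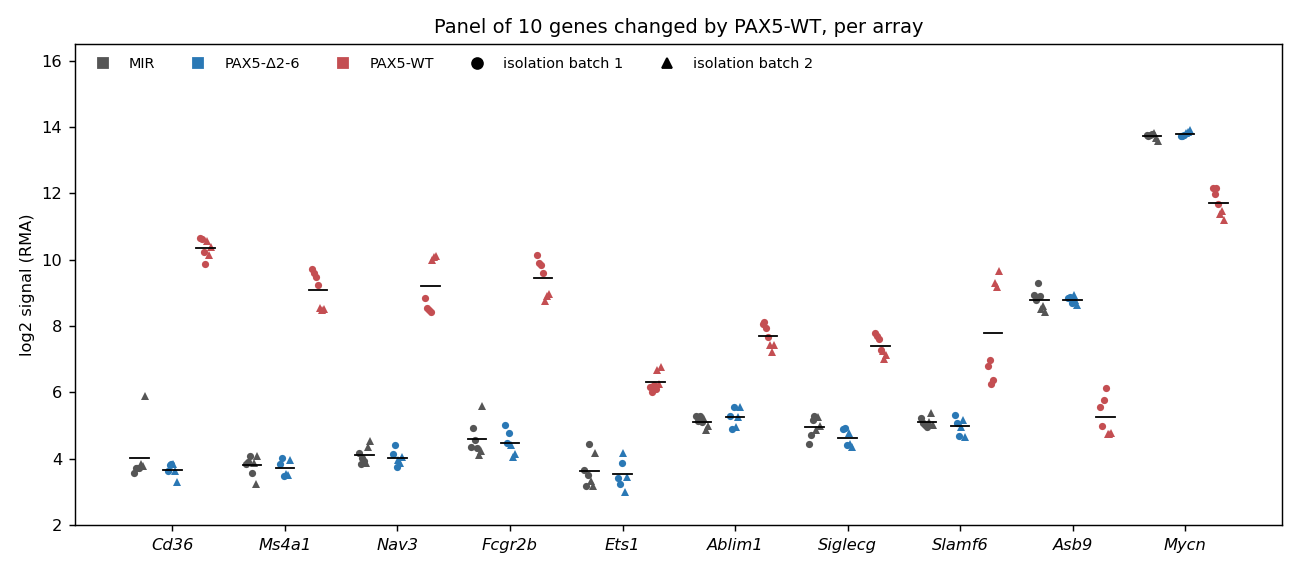
Log2 signal of 10 genes that PAX5-WT changed, 1 point per array, for MIR (7 arrays), PAX5-Δ2-6 (6) and PAX5-WT (7), with a bar at each mean and the isolation batch shown by the shape. PAX5-Δ2-6 points overlap the MIR points for every gene shown, and the single high MIR point of Cd36 at 5.89 is replicate 7.

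A score over many genes summarised the response per array. For each isolation batch genes that passed the threshold for PAX5-WT against MIR in the other batch were taken, 157 genes to score batch 1 and 443 to score batch 2. The plate effect, fitted on all 40 arrays including those scored, was first removed from the levels. The mean signed level of these genes was then scaled within the batch to 0 at the mean of MIR and 100 at the mean of PAX5-WT. The genes never came from the arrays scored, and the PAX5-Δ2-6 arrays took no part in their choice. In isolation batch 1 the PAX5-Δ2-6 arrays scored -1.12, -0.19 and 2.27, and the MIR arrays scored -2.37 at the lowest and 1.82 at the highest. The 2 groups overlapped there. In isolation batch 2 the PAX5-Δ2-6 arrays scored -5.23, -6.52 and -6.03, and the MIR arrays scored -6.22, -0.02 and 6.24. The PAX5-Δ2-6 arrays of that batch lay at the low end of the MIR range, and the highest MIR score was that of replicate 7. PAX5-WT arrays scored between 91.5 and 105.2. The mean difference over both batches was -2.81 points of the PAX5-WT response (two-sided exact permutation within isolation batches, 700 regroupings, p = 0.254, smallest possible p 0.00143). Without MIR replicate 7 it was -0.33 (exact permutation p = 0.86).

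**Figure D2:**
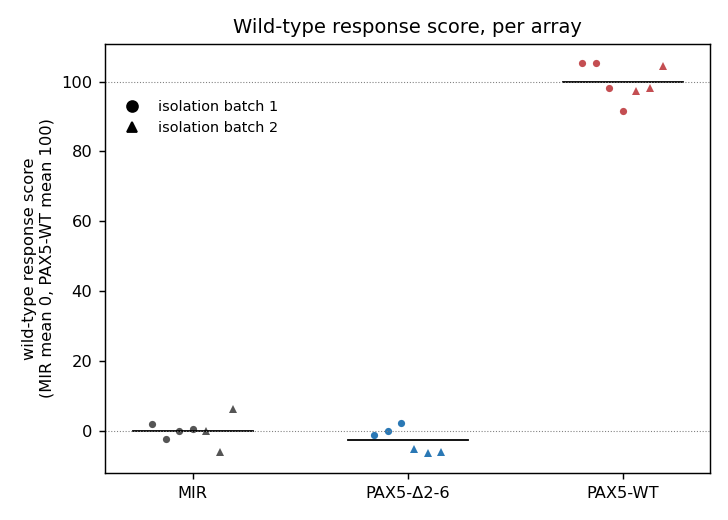
Wild-type response score of each array, scaled within isolation batches to a mean of 0 for MIR (7 arrays) and 100 for PAX5-WT (7 arrays), with the 6 PAX5-Δ2-6 arrays and a bar at each mean. PAX5-Δ2-6 scores lie between -6.52 and 2.27 and PAX5-WT scores between 91.5 and 105.2.

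Gene lists were examined for smaller shifts shared by many genes. The 21 lists held 387 different genes, of which 332 were matched to measured genes, and 0 of them were called against MIR in the pooled limma fit. Among the genes that PAX5 is known to activate, 22 of 26 were measured and the median PAX5-Δ2-6 minus MIR difference was 0.03 on the log2 scale, where the median over all genes was 0.0024. The largest difference of the list was the -0.39 of Siglecg given above. PAX5-WT raised 4 and lowered 1 of the same 22 genes, and its median over them was 0.04. Of the genes that PAX5 is known to repress, 17 of 18 were measured, with a median of 0.03 for PAX5-Δ2-6 and -0.07 for PAX5-WT. Jchain had the largest difference of that list, -0.25 ± 0.17 (limma adjusted p = 0.743), and its MIR arrays at 12.36, 12.45 and 13.19 overlapped the PAX5-Δ2-6 arrays at 12.35, 12.54 and 12.80.

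Medians of the B cell lists were near 0 as well. Over 22 B lineage transcription factors the median difference was 0.0023 for PAX5-Δ2-6 and 0.09 for PAX5-WT, which raised 5 of them. Over the 21 lists the PAX5-WT medians ran from -0.15 to 0.13. A median near 0 therefore does not show that a construct is inactive. Over 20 genes of B cell receptor signalling the median was 0.03, and 0.13 for PAX5-WT. Cd79a, the signalling chain of the receptor, had the largest difference of that list, with 4.08, 4.21 and 4.30 in MIR and 4.28, 4.36 and 4.73 in PAX5-Δ2-6. Its difference was 0.22 ± 0.09 (limma adjusted p = 0.554), and the lowest PAX5-Δ2-6 array lay just below the highest MIR array. Over 16 genes of MHC class II presentation the median was -0.07, and 0.10 for PAX5-WT. Cd74, the chaperone that escorts these molecules, was at 6.32, 6.42 and 6.69 in MIR, at 6.52, 6.80 and 7.04 in PAX5-Δ2-6 and at 6.77, 7.10 and 7.17 in PAX5-WT. The PAX5-Δ2-6 difference of Cd74 was 0.29 ± 0.14 (limma adjusted p = 0.641), and PAX5-WT raised it by 0.59 ± 0.12 (adjusted p = 0.00136).

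Secretory and stress genes differed little. The median over 12 genes of plasma cell identity was -0.04, and over 20 genes of the unfolded protein response it was -0.01. Syvn1, a ubiquitin ligase of the endoplasmic reticulum, had the largest difference of the second list, -0.23 ± 0.07 (limma adjusted p = 0.436), from 9.997, 10.15 and 10.34 in MIR to 9.87, 9.94 and 10.02 in PAX5-Δ2-6. The 2 groups overlapped by a narrow margin. Among 19 genes of the amino acid and integrated stress response the median was 0.05. Sesn2, a stress-induced inhibitor of the growth kinase mTORC1, was at 7.10, 7.29 and 7.68 in MIR and at 7.55, 7.71 and 7.86 in PAX5-Δ2-6, with a difference of 0.33 ± 0.11 (adjusted p = 0.449). It had the same sign in isolation batch 1 (0.30) and isolation batch 2 (0.35).

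Metabolic and growth lists gave medians of -0.05 for cholesterol synthesis (17 genes), -0.0044 for glycolysis and hypoxia (22), 0.03 for the cell cycle (27) and 0.05 for MYC and ribosome biogenesis (18). In the glycolysis list Gpi1 and Eno1 were matched by synonym to Pigq and Eno1b, and Pigq is not a gene of glycolysis. Fdps, an enzyme of cholesterol synthesis, lay at 8.37, 8.82 and 9.17 in MIR and at 8.71, 9.05 and 9.51 in PAX5-Δ2-6, a difference of 0.42 ± 0.13 (limma adjusted p = 0.449) with overlap. Ankrd37, a hypoxia-induced gene, lay at 7.49, 7.82 and 8.33 in MIR and at 7.26, 7.40 and 7.48 in PAX5-Δ2-6. All 6 PAX5-Δ2-6 arrays of Ankrd37 were below all 7 MIR arrays, which 22 of all genes showed (0.129%), and the difference was -0.59 ± 0.23 (adjusted p = 0.537). With 3 transduction runs it was -0.88 at an adjusted p of 0.0403, and its adjusted p ranged from 0.0403 to 0.9998 over the alternatives. Its difference ran from -0.94 to 0.47 over the alternative settings, so its direction was not kept. Cdkn1b, an inhibitor of the cell cycle, differed by -0.25 ± 0.10 (adjusted p = 0.553), and Mxd4, an antagonist of MYC, by -0.25 ± 0.14 (adjusted p = 0.702).

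The other lists had medians of -0.09 for the interferon response (24 genes), 0.03 for p53 and apoptosis (18), 0.07 for adhesion and migration (16) and 0.04 for immediate early and heat shock genes (18). Itga4, the integrin that binds VCAM1, was at 7.22, 7.55 and 7.65 in MIR and at 7.58, 7.83 and 8.18 in PAX5-Δ2-6, a difference of 0.32 ± 0.14 (limma adjusted p = 0.567), whereas its PAX5-WT minus MIR difference was -1.02 ± 0.12. Bcl2l11, a killer protein of the BCL2 family, differed by -0.29 ± 0.13 (adjusted p = 0.616). Ier3, an early response gene, differed by 0.18 ± 0.20 (adjusted p = 0.863) and Igha, the IgA heavy chain, by -0.09 ± 0.12 (adjusted p = 0.905).

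The fit with 3 transduction runs called 677 of all 17097 genes (3.96%), and 7 of the list genes named here passed its threshold besides Ankrd37. One was Mycn of the PAX5-activated list, given above. Jchain was at -0.73 (limma adjusted p = 0.00046), Rsad2 at -0.74 (0.00195), Syvn1 at -0.35 (0.00197), Cdkn1b at -0.43 (0.0144), Mxd4 at -0.54 (0.019) and Cd74 at 0.59 (0.00837). Their adjusted p-values reached 0.9998 under other alternatives. The differences of Mycn, Rsad2 and Mxd4 changed sign under some settings, reaching -0.0069, 0.19 and 0.16. Apart from Mycn, a panel gene, the 7 were named for the largest pooled difference of their lists in these same arrays. How many of them passed is therefore no measure of the lists.

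Markers of other cell types were examined with the same fit. The summed log2 level of 13 fibroblast markers ran from 50.6 to 51.2 over MIR and from 50.2 to 51.4 over PAX5-Δ2-6, that of 10 T cell markers from 45.6 to 46.9 and from 46.2 to 46.7, that of 13 myeloid markers from 55.5 to 57.2 and from 55.6 to 57.8, and that of 7 erythroid markers from 27.0 to 28.2 and from 27.5 to 28.7. The groups overlapped for each list, and 0 of these genes were called. The gene with the largest difference of each was Lum (-0.18), Cd8a (-0.25), Cebpa (0.23) and Tal1 (-0.17), all at MIR medians under 4. In bulk RNA of a culture, fewer cells of a type and less RNA per cell cannot be told apart.

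The sizes of the differences over all genes were compared next. A difference of 1.5-fold or more from MIR was estimated for 4 genes with PAX5-Δ2-6 and for 148 with PAX5-WT. The standard deviation of the differences over genes was 0.104 for PAX5-Δ2-6 and 0.174 for PAX5-WT, on the log2 scale, and the largest were 0.80 and 6.32. Both comparisons use the same MIR arrays. The 4 genes were Pax5, Lrp2bp, Slc47a1 and Ankrd37, named after their values were seen. Lrp2bp, a protein that binds the endocytic receptor megalin, differed by -0.74 ± 0.27 (limma adjusted p = 0.515), with -0.26 in isolation batch 1 and -1.40 in isolation batch 2. Slc47a1, an exporter of organic cations, lay at 6.19, 6.60 and 6.77 in MIR and at 5.56, 6.09 and 6.32 in PAX5-Δ2-6. Its difference was -0.63 ± 0.15 (adjusted p = 0.253), with the same sign in both isolation batches (-0.49 and -0.82).

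**Figure D3:**
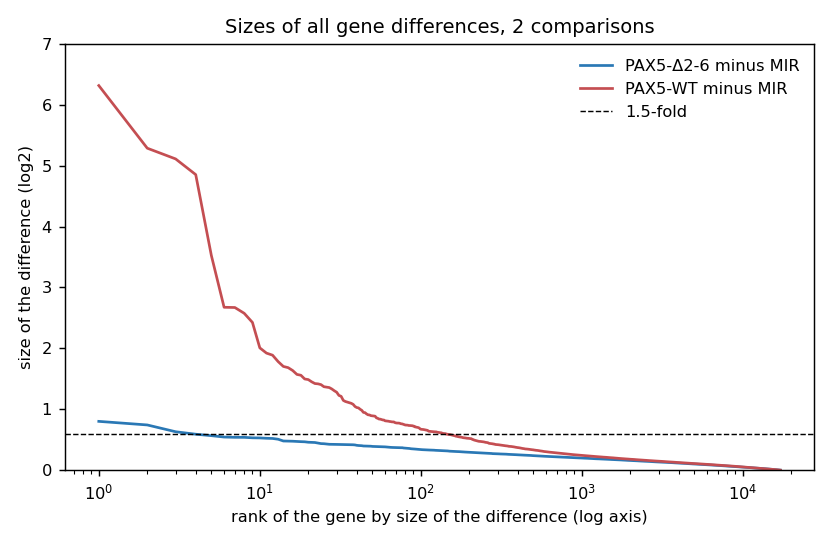
Size of the log2 difference from MIR of each of 17097 genes, ordered from the largest, for PAX5-Δ2-6 (6 arrays) and PAX5-WT (7 arrays), with the rank on a log axis and a dashed line at 1.5-fold. The PAX5-Δ2-6 curve starts at 0.80 and has 4 genes above the line, and the PAX5-WT curve starts at 6.32 and has 148.

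Pax5 itself had the largest estimated difference. Its single probe set lay at 4.19, 4.51 and 4.63 in MIR and at 4.68, 5.00 and 5.90 in PAX5-Δ2-6, near the median signal of the arrays. All 6 PAX5-Δ2-6 arrays were above all 7 MIR arrays, as for 18 of all genes (0.105%). The difference was 0.80 ± 0.17 (95% interval 0.46 to 1.14; limma adjusted p = 0.218), with 0.52 in isolation batch 1 and 1.06 in isolation batch 2. With 3 transduction runs it was 0.97 and passed the threshold (adjusted p = 0.0025, range 0.0025 to 0.9998 over the alternatives). In the other constructs the level ran from 4.36 to 5.15 in PAX5-WT, from 3.97 to 5.14 in PAX5-G183S, from 4.75 to 5.11 in PAX5-G183V and from 4.53 to 5.41 in PAX5-P80R, and each of these ranges overlapped that of PAX5-Δ2-6. The PAX5-Δ2-6 minus PAX5-WT difference was 0.50 ± 0.17 (limma adjusted p = 0.0672). The probe sequences and the transduced sequence were not used here, so whether the probe set reads the construct, the endogenous gene or both was not tested. It therefore does not check the labels.

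**Figure D4:**
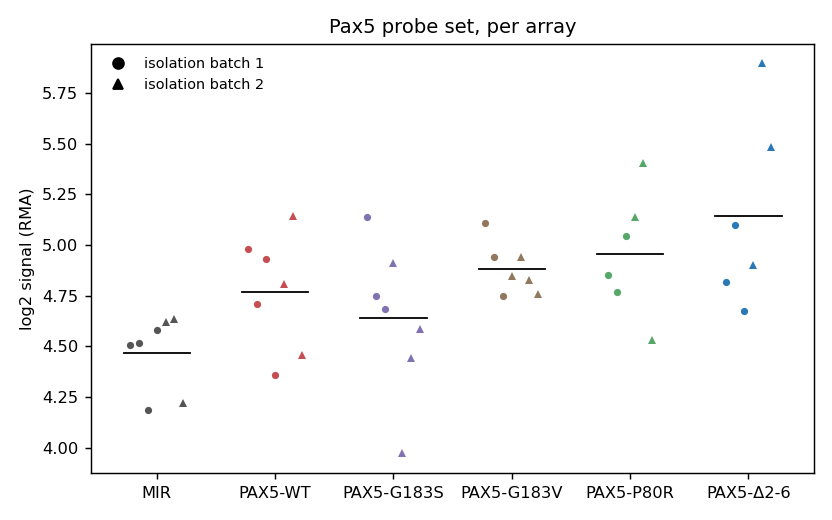
Log2 signal of the Pax5 probe set in each array of the 6 groups, with a bar at each mean and the isolation batch shown by the shape. The PAX5-Δ2-6 arrays lie between 4.68 and 5.90, above the MIR arrays at 4.19 to 4.63, and overlap the other constructs.

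Within isolation batches the comparison gave few calls in batch 1 and more in batch 2. Fitted alone, isolation batch 1 had 4 called genes (0.0234%), which were Hspa1l, a heat shock protein of the HSP70 family (0.49), Ppp1r17 (0.88), Rex2 (0.59) and Mgl2 (-0.38). Hspa1l lay between 3.23 and 3.67 in MIR and between 3.26 and 3.87 in PAX5-Δ2-6, below the median signal of the arrays. Isolation batch 2 alone had 56 called genes (0.328%), 23 higher and 33 lower. The count fell to between 0 and 11 when any one of its 6 arrays was left out: 0 without MIR replicate 5 or 6 or PAX5-Δ2-6 replicate 5 or 6, 1 without PAX5-Δ2-6 replicate 4 and 11 without MIR replicate 7, with 1771 to 2129 genes at an unadjusted limma p under 0.05. In a fit of all 40 arrays with a group by isolation batch term, which shares the spread over all groups, the counts were 2 in batch 1 (0.0117%) and 332 in batch 2 (1.94%), 165 higher and 167 lower. Of the 56 genes, 51 were among these 332.

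The genes lower in isolation batch 2 included members of several of the lists. Cd79b, the partner of Cd79a in the B cell receptor, was -0.43 (limma adjusted p = 0.0399), and Inpp5d, a lipid phosphatase that restrains its signalling, was -0.43. They were 2 of the 20 measured B cell receptor genes, and over all genes 33 were lower in that batch (0.193%). Rsad2, an antiviral enzyme induced by interferon, was -1.02 (adjusted p = 0.0268), 1 of 24 interferon genes matched to the list. The list gene Rigi was not matched, but it was measured under its older symbol Ddx58. Ddx58 was also lower in isolation batch 2, by -0.55 (limma adjusted p = 0.0399), and was at -0.16 in isolation batch 1. Syvn1 was -0.43 (adjusted p = 0.0399), 1 of 20 genes of the unfolded protein response. In isolation batch 1 the same differences were 0.16 for Cd79b, 0.11 for Inpp5d, 0.19 for Rsad2 and -0.06 for Syvn1. For Cd79b the PAX5-Δ2-6 arrays of batch 2 lay at 9.75 to 9.88, below the MIR arrays of that batch at 10.13 to 10.19. In batch 1 they lay at 10.11 to 10.21, above the MIR arrays at 10.01 to 10.08. Cd79b was named for its call in batch 2, and the share of all genes that separate in this way was not counted. Of the genes in no list, named after their values were seen, Tapbp, which loads peptides on MHC class I, was -0.77, Bmf, a death protein of the BCL2 family, was -1.05, and Tnfrsf21, a death receptor, was 0.83.

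The difference between PAX5-Δ2-6 and MIR itself differed between the isolation batches for 36 genes in the group by isolation batch fit (0.211%), 20 with a higher and 16 with a lower difference in batch 2. For 34 of the 36 the estimates had opposite signs, which choosing genes by a large change of the difference itself favours. Ppp1r17, an inhibitor of protein phosphatases, had the smallest adjusted p. Its levels were low, from 3.42 to 4.79 over the 13 arrays, whose medians ran from 4.22 to 4.26. In isolation batch 1 its MIR arrays were at 3.69, 3.43, 3.63 and 3.46 and its PAX5-Δ2-6 arrays at 4.58, 4.57 and 4.09, so PAX5-Δ2-6 was higher without overlap. In isolation batch 2 the MIR arrays were at 4.15, 4.79 and 4.50 and the PAX5-Δ2-6 arrays at 3.49, 3.42 and 3.56, so PAX5-Δ2-6 was lower without overlap. Ppp1r17 was chosen by a test on these same arrays, and the share of all genes without overlap within a batch was not counted. The change of the difference was -1.85 ± 0.22 (limma adjusted p = 2.33e-05). Ppp1r17 was also the 1 gene called in both isolation batches alone, with opposite signs.

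Akr1c12, an aldo-keto reductase, reversed in the same way. Its MIR arrays rose from 4.36 to 5.18 in isolation batch 1 to 5.56 to 5.71 in isolation batch 2, while PAX5-Δ2-6 went from 5.68 to 6.15 down to 4.77 to 4.87. The change of the difference was -1.87 ± 0.37 (limma adjusted p = 0.0222). Ifi44l, an interferon-induced gene, was at 5.71 to 5.91 in MIR and 5.09 to 5.48 in PAX5-Δ2-6 in batch 1, and at 4.01 to 4.60 and 5.16 to 5.45 in batch 2. For Ifi44l the MIR arrays changed between the batches and the PAX5-Δ2-6 arrays kept nearly the same range, with a change of the difference of 1.54 ± 0.32 (adjusted p = 0.0313). Acss1, a mitochondrial acetyl-CoA synthetase, had a change of -1.35 ± 0.30 (adjusted p = 0.0478), and its MIR arrays lay at 5.61 to 6.14 in batch 1 and 7.19 to 7.29 in batch 2. Tgm2, a transglutaminase, had a change of 1.35 ± 0.29 (adjusted p = 0.0408).

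The count of 36 depended on single arrays. It was 1 without MIR replicate 5, 8 without MIR replicate 6 and 16 and 18 without MIR replicates 2 and 4. It was 4, 5, 22, 5, 13 and 20 without PAX5-Δ2-6 replicates 1, 2, 3, 4, 5 and 6. It was 26, 25 and 43 without MIR replicates 1, 3 and 7. On plate 2 arrays alone 3 genes were called.

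Across all 17097 genes the PAX5-Δ2-6 minus MIR differences of the 2 isolation batches, which share no array, had a Pearson correlation of 0.0032. The PAX5-WT minus MIR differences of the same batches had a correlation of 0.65. These values describe genes, which are not independent replicates. Of the 56 genes called in isolation batch 2 alone, 31 had the same sign in isolation batch 1, and their median difference taken in the direction of batch 2 was 0.65 in batch 2 and 0.0068 in batch 1.

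PAX5-G183V and PAX5-G183S, which share no array with the 13, lie in a similar order in the numbering. PAX5-G183V has the numbers 7 to 9, 46, 47, 49 and 50, near those of PAX5-Δ2-6, and PAX5-G183S has 41, 42, 44 and 64 to 66, beyond those of MIR, and 45 for its replicate 4. Within the run 45 to 66 all 4 groups are present, so in isolation batch 2 the groups differ in position in the numbering and not in labelled series. For PAX5-Δ2-6 and MIR, construct and position cannot be told apart there. In the pooled limma fit 0 genes were called between PAX5-G183V and PAX5-G183S (0%), with 1526 at an unadjusted p under 0.05, and in isolation batches 1 and 2 alone 23 (0.135%) and 111 (0.649%) were called. Over all genes, PAX5-G183V minus PAX5-G183S had a Pearson correlation with PAX5-Δ2-6 minus MIR of -0.04 in isolation batch 1, of 0.46 in isolation batch 2 and of 0.31 with both fitted together. In batch 2 it was 0.43 without PAX5-G183S replicate 4. Of the 56 genes, 52 had the same sign in PAX5-G183V minus PAX5-G183S of that batch, with a median of 0.27 in the direction of PAX5-Δ2-6. The share of all genes with the same sign was not counted, so the 52 do not set these genes apart from the others. Ppp1r17 had 0.75 in batch 1 and -0.48 in batch 2 for PAX5-G183V minus PAX5-G183S, and 0.88 and -1.04 for PAX5-Δ2-6 minus MIR. Akr1c12 had 0.91 and -0.69, and 1.00 and -0.82. Tgm2 had -0.12 and 0.83, and -0.19 and 0.93. For these 3 genes the signs were alike in both batches. Ifi44l had 0.22 and 0.33, and -0.43 and 0.93, with opposite signs in batch 1. Acss1 had 0.00027 and -0.36, and 0.47 and -1.17. The part of the position in the numbering in the calls of isolation batch 2 was not tested beyond these values.

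**Figure D5:**
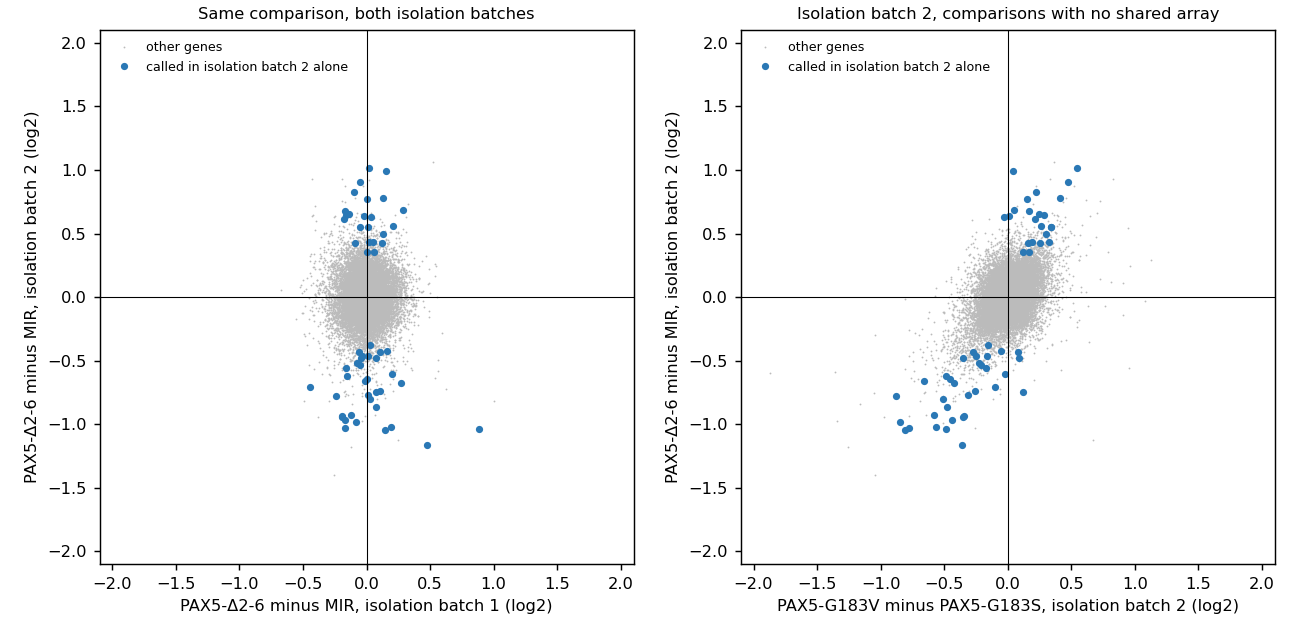
Log2 differences of 17097 genes, 1 point per gene, with the 56 genes called in isolation batch 2 alone in colour. The left panel sets PAX5-Δ2-6 minus MIR of isolation batch 1 (3 and 4 arrays) against that of batch 2 (3 and 3 arrays), with a correlation of 0.0032, and the right panel sets PAX5-G183V minus PAX5-G183S of batch 2 (4 and 4 arrays) against PAX5-Δ2-6 minus MIR of batch 2, with a correlation of 0.46.

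PAX5-Δ2-6 was then compared with the active constructs. Against PAX5-WT 1195 genes were called by limma (6.99%), 481 higher and 714 lower in PAX5-Δ2-6, 174 of them by 1.5-fold or more. The count was 588 and 706 in isolation batches 1 and 2 alone. These groups too do not interleave in the numbering, and 58 genes were called with 4 transduction runs in the fit. PAX5-P80R, which carries a change in the paired domain, has neighbouring transduction numbers (1 to 3, 48, 51 and 52) and plate 2 in common with PAX5-Δ2-6, and 565 genes were called between them (3.3%), 232 higher and 333 lower in PAX5-Δ2-6. In isolation batches 1 and 2 alone the counts were 92 and 467. PAX5-G183V, with a change in the octapeptide, also has neighbouring numbers, and 852 genes were called (4.98%), 280 higher and 572 lower, with 200 and 545 in isolation batches 1 and 2 alone. The 3 comparisons share the PAX5-Δ2-6 arrays.

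The panel separated the constructs gene by gene. Cd36 in PAX5-Δ2-6 was lower than in PAX5-WT by 6.70 ± 0.31 and differed from PAX5-G183V by -6.54 ± 0.31 on the log2 scale, while against PAX5-P80R the difference was -1.03 ± 0.30 (limma adjusted p = 0.0425). Ms4a1 differed from PAX5-WT by -5.32 ± 0.31 and from PAX5-G183V by -5.01 ± 0.31, and from PAX5-P80R by -0.20 ± 0.30 (adjusted p = 0.871). Nav3 differed from all 3, by -5.19 ± 0.41 from PAX5-WT, -4.33 ± 0.41 from PAX5-G183V and -5.07 ± 0.40 from PAX5-P80R. Ets1 was lower than in PAX5-P80R by 3.16 ± 0.22, and Asb9 was higher by 2.00 ± 0.16. For Siglecg and Slamf6 the PAX5-Δ2-6 minus PAX5-P80R differences were -0.17 ± 0.20 and -0.06 ± 0.39, with adjusted p-values of 0.807 and 0.977, and neither was called. PAX5-Δ2-6 overlapped with MIR for Nav3, Ets1 and Asb9, which PAX5-P80R moved by 4.99, 2.87 and -2.01 from MIR.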

How the data were processed

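Biotinylated cRNA of total RNA was hybridised to Affymetrix arrays, 1 array per transduction. The deposited log2 signals come from RMA, run by the authors according to the submitters' processing notes, with software and version not given in the sources. The platform annotation gives 1 gene for 28898 of 45141 probe sets, several for 551 and none for 15692, and 28689 of those with 1 gene matched RefSeq by gene identifier. Each of 17097 genes was read from its brightest probe set (highest mean across arrays). The labels gave each array's group, plate, isolation batch and transduction number. Using R 4.3.3, limma 3.58.1 fitted all 40 arrays (group, plate, isolation batch), with Benjamini-Hochberg adjustment over all genes, a call at an adjusted p under 0.05 and moderated standard errors. The fit was tested on simulated data.

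The comparison, the panel and the gene lists were chosen with earlier results of these data known. Genes were named by a rule: called genes with the largest changes, per list the called genes or else the 1 gene with the largest change, the 5 largest among genes that differed by isolation batch, Pax5 and the panel. Genes outside it are said to have been named after their values were seen, as are those called within an isolation batch. RMA brings all arrays to 1 distribution, so a shift of total RNA cannot be seen, and it compresses folds near the background. Alternatives were other batch terms, parts of the arrays, a replicate block, other scaling, filters and probe summaries, array weights and each array left out. The group by isolation batch counts per batch, the arrays left out within batch 2 and the omission of PAX5-G183S replicate 4 were added after seeing the data.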

Additional observations from a re-analysis of the deposited data

Results flagged for a closer look

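In MIR, Cd36 was at 5.89 in replicate 7 and between 3.56 and 3.85 in the other 6 arrays. In PAX5-Δ2-6, Lum was at 4.12 in replicate 2 and between 3.77 and 3.85 in the others. Both samples lie far from the rest of their group by Dixon's test, 2 of 68 gene and group pairs looked at, where chance would mark about 5% of groups.

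The difference between PAX5-Δ2-6 and MIR changed between isolation batches, by the interaction term in limma, for 5 named genes. Ppp1r17 changed by -1.85 (0.85 in batch 1, -0.999 in batch 2), Akr1c12 by -1.87 (1.02 and -0.85), Ifi44l by 1.54 (-0.51 and 1.03), Acss1 by -1.35 (0.35 and -1.001) and Tgm2 by 1.35 (-0.29 and 1.06).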

How the results depend on the processing

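For PAX5-Δ2-6 against MIR the count of called genes was 0 under 14 of 18 alternative settings, with 646 to 1531 genes at an unadjusted limma p under 0.05. It was 4 and 56 in isolation batches 1 and 2 alone, 677 with 3 transduction runs and 1 with only the 2 groups compared (Porcn, -0.58, named after its value was seen). Leaving out each array gave 0 to 1 genes, the 1 being Ccdc174, likewise named, without PAX5-Δ2-6 replicate 3. In the fit with 4 transduction runs the 2 groups are tied by PAX5-G183S replicate 4 alone, and 0 genes were called. Under the group by isolation batch fit the counts of batches 1 and 2 were 2 and 332, and the arrays of batch 2 left out in turn gave 0 to 11.

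The 36 genes that differed by isolation batch were 3 on plate 2 alone, 95 with the filter on dim genes, 92 with trend and robust settings and 193 with array weights, and 1 to 43 with each array left out. The cause of these shifts was not tested.

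Against PAX5-WT the count was 589 on plate 2 alone, 588 and 706 in isolation batches 1 and 2 alone, 58 with 4 transduction runs, 576 with only the 2 groups and 174 at a 1.5-fold minimum. Against PAX5-P80R it was 337 with no batch terms, 92 in isolation batch 1 alone and 83 at 1.5-fold. Against PAX5-G183V it was 425 on plate 2, 200 and 545 in isolation batches 1 and 2, 445 with only the 2 groups and 141 at 1.5-fold. Fewer arrays enter the fits of single plates, batches and groups. The fit with a plate term alone was not run against PAX5-P80R. With each array left out these 3 counts ran from 902 to 1156, from 419 to 583 and from 646 to 843.

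With a replicate block 0 genes were called against MIR, 379 against PAX5-WT, 534 against PAX5-P80R, 393 against PAX5-G183V and 10 by isolation batch. The numbers did not pair the arrays: deviations of 6 same-numbered pairs correlated between -0.17 and 0.11, and 1 array correlated best with its own number. The block could not be fitted in the choice of genes for the score.

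The wild-type response score kept its sign and its side of the threshold under the alternatives run (-6.17 to -1.71, and -4.57 to -0.33 with each array left out). The correlation across genes with PAX5-G183V minus PAX5-G183S, 0.31, was -0.036 and 0.46 in isolation batches 1 and 2, 0.49 with the filter on dim genes and 0.43 in batch 2 without PAX5-G183S replicate 4. Of 1013 values of 34 named genes under the alternatives, 970 kept direction and side of the threshold or moved by under 1 SE. A further 24 changed sign by 1 SE or more without passing the threshold, and 16 kept their direction and passed it. The 3 sign changes that passed the threshold were Ppp1r17 (-1.04 in batch 2 alone, -0.93 with 3 runs, from 0.05) and Akr1c12 (-0.76 with 3 runs, from 0.21).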

Other observations

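Of 16243 probe sets without exactly 1 gene name, fitted separately, 0 were called between PAX5-Δ2-6 and MIR by limma (1055 at an unadjusted p under 0.05, smallest adjusted p 0.441) and 320 between PAX5-WT and MIR.

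Apart from Pax5, given above, the smallest p-values of the pooled comparison belonged to genes outside the lists. Some of these genes, not all, are given here, named after their values were seen. Tmem163, a zinc transporter, differed by -0.48 ± 0.10 (limma adjusted p = 0.218), with -0.35 and -0.60 in isolation batches 1 and 2. Its difference from MIR was -0.54 in PAX5-WT, -0.78 in PAX5-P80R and -0.85 in PAX5-G183V, comparisons that share the MIR arrays. Gpr180, a receptor-like membrane protein, differed by 0.25 ± 0.06 (adjusted p = 0.218), with its MIR arrays at 8.22 to 8.43 and its PAX5-Δ2-6 arrays at 8.40 to 8.76. Dgke, a lipid kinase, differed by 0.48 ± 0.11 and Ypel2 by -0.54 ± 0.13, both with the same sign in each isolation batch. H4c9, a histone H4 gene, differed by -0.31 ± 0.07. None of these passed the threshold.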
